A study of Sus scrofa with 9 samples.

Results

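ADAMDEC1, ADAM7 and ADAM28 are 3 neighbouring genes of the ADAM metalloprotease family on pig chromosome 14. They were taken by name from the deposited expression table, which lists 30477 genes, and each symbol matched 1 row. The set was chosen by measured values: ADAMDEC1 and ADAM7 were selected on their low level in treated against control veins in these same libraries, and ADAM28 is their neighbour. Their difference between the groups is therefore given as a description, with no test.

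The libraries came from outflow veins of arteriovenous fistulas in pigs with a chronic kidney disease model. The fistula joins the carotid artery to the jugular vein; surgery followed the onset of kidney disease by 28 days, and veins were taken after a further 28 days. In the MSC group (6 libraries), adipose-derived mesenchymal stem cells in Ringer lactate were laid on the outer wall of the vein straight after the fistula was made. Control veins (3 libraries) were untreated, and the labels name no vehicle for them; both groups carried kidney disease and a fistula. The labels do not say that each library is a separate animal, so p-values measure only the spread among libraries, part of which may be technical. Extra tags of unstated meaning stand in 2 library names, NT and F in control 2, and Allo and M in MSC 1.

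Values are RPKM, the reads on a gene relative to its length and to all assigned reads, divided by a scaling factor for each library (scaled RPKM). The factors ran from 0.407 in MSC 6 to 1.44 in control 1. Between 16939157 and 47417606 reads were assigned to genes per library. The share of small non-coding RNA was high in MSC 6 (53.3%) and control 2 (40.4%) and lay between 6.75% and 16.4% elsewhere. The shallowest library, MSC 2, had reads on 94.5% of all genes, against 71.7% to 84.2% elsewhere. Lane 7 of the flow cell held MSC 2, MSC 5 and MSC 6 and no control. The Y-linked genes EIF1AY and KDM5D held 571 to 5640 reads in 5 MSC libraries, 1 read in control 1, and 0 in the other controls and MSC 3. Y-linked reads and treatment thus nearly coincide, and apart from MSC 3 they cannot be told apart.

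ADAM proteins are made with a prodomain, a zinc metalloprotease domain and a disintegrin domain, and most are anchored in the membrane, where they can shed other surface proteins. ADAMDEC1 is a short, secreted relative in which an aspartate takes the place of the third zinc-binding histidine. In humans it is known from macrophages, maturing dendritic cells and fibroblasts of the gut lining. ADAM28 is made by human lymphocytes and some epithelia, as a membrane-bound and a secreted form. ADAM7 is best known from the epididymis of rodents, where it is passed to sperm.

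The deposited intervals of ADAMDEC1 and ADAM7 are largely the same stretch of genome, which bears on every value of both genes. ADAMDEC1 (ENSSSCG00000009645) is listed at chromosome 14, 8456134 to 8553836, and ADAM7 (ENSSSCG00000009646) at 8456134 to 8569115. They begin at the same base and overlap over 97703 bases, all of the ADAMDEC1 interval and 86.5% of that of ADAM7. ADAM28 (ENSSSCG00000009644), at 8375212 to 8438615, ends 17518 bases before them and overlaps no other listed gene. The RefSeq annotation of Sscrofa11.1 instead has 2 separate genes, ADAMDEC1 at 8455964 to 8483308 and ADAM7 at 8484391 to 8554879, with 1082 bases between them. The coordinates are of 1 build: 13743 of 13755 genes with a symbol in both tables overlapped between them. In the deposited table a further gene without a symbol (ENSSSCG00000049065, 8443026 to 8961209) spans both, and it held 149 reads over all 9 libraries.

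Reads listed on ADAM7 tracked those on ADAMDEC1 almost one for one. ADAMDEC1 held 4053 reads in control 1, 4544 in control 2 and 6377 in control 3, and ADAM7 held 4291, 4650 and 6592. In the MSC libraries, replicates 1 to 6, ADAMDEC1 held 426, 198, 834, 1103, 47 and 31 reads, and ADAM7 held 521, 238, 960, 1247, 49 and 43. ADAM7 exceeded ADAMDEC1 in all 9 libraries, by small numbers. Across the 9 libraries the log2 levels of both genes had a Pearson r of 0.9998, as values that may come from the same reads. The 2 rows are not treated as independent measurements here, and how many reads were counted for both was not tested.

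The excess of ADAM7 over ADAMDEC1 is the least number of reads that ADAM7 can have had to itself, if each read counts at most once per gene. It was 238, 106 and 215 reads in controls 1 to 3, which is 5.55%, 2.28% and 3.26% of the ADAM7 reads. In MSC 1 to 6 it was 95, 40, 126, 144, 2 and 12 reads, or 18.2%, 16.8%, 13.1%, 11.5%, 4.08% and 27.9%. As a share of ADAM7 reads the excess overlapped between the groups, since MSC 5 lay below control 1. In CPM, which is relative to library size and was scaled likewise, the excess was 3.71 to 4.07 in controls and 0.0525 to 3.50 in MSC libraries. On that scale the groups did not overlap, although MSC 3 at 3.50 came close to the lowest control, and MSC 4 followed at 2.69. In plain reads they did overlap, as control 2 (106) lay below MSC 3 (126) and MSC 4 (144). The excess comes from the same values that chose the set, so nothing is read from its separation.

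**Figure D1:**
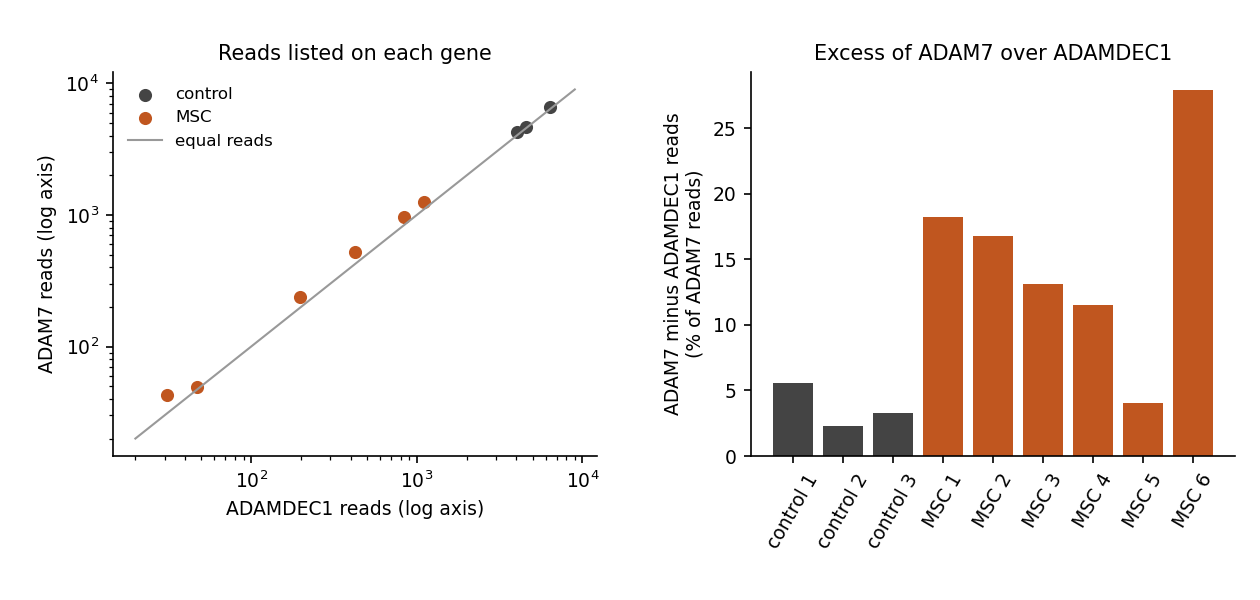
Left, reads listed on ADAM7 against reads listed on ADAMDEC1 in each library, both on log axes, with the line of equal reads. Right, ADAM7 minus ADAMDEC1 reads as a percentage of ADAM7 reads, one bar per library; points hug the line, and the excess ran from 2.28% in control 2 to 27.9% in MSC 6.

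ADAMDEC1 was the highest of the 3 members in control veins and had the widest range. It stood at 15.4, 39.2 and 29.5 scaled RPKM in controls 1 to 3. In MSC 1 to 6 it stood at 2.27, 2.03, 5.65, 5.02, 0.301 and 0.523. Every MSC library lay below every control, and the lowest control was 2.73 times the highest MSC library. The control mean was 28.0 ± 11.9 (SD, n = 3) and the MSC mean 2.63 ± 2.25 (SD, n = 6), a ratio of 10.6. The log2 difference was −3.16 ± 0.56 (SE) on the log2(scaled RPKM + 1) scale, which understates changes of low values. It ranked 17th from the lowest among 17884 genes tested. All MSC libraries lay below all controls in 1.97% of those genes, and since this contrast chose the gene, nothing is read from that share. In bulk tissue, fewer cells that express a gene and less RNA per cell cannot be told apart.

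The MSC libraries differed from each other by more than the controls did. The highest MSC value of ADAMDEC1 was 18.8 times the lowest, against 2.54 times in controls. MSC 5 and MSC 6 were lowest, with 47 and 31 reads. MSC 3 and MSC 4 were highest, and MSC 1 and MSC 2 lay between. In MSC 2 the low level is less certain. The 4 ADAM genes below the filter on low values (ADAM3A, ADAM18, ADAM21 and ADAM30) read 0.243 to 1.42 scaled RPKM in that library and at most 0.0450 in any other. The part of that general background in its 2.03 for ADAMDEC1 was not tested.

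Lanes 5 and 6 held both groups, and the ADAMDEC1 values within them are given as a description. In lane 5, controls 1 and 2 averaged 27.3 scaled RPKM and MSC 1 stood at 2.27. In lane 6, control 3 stood at 29.5 and MSC 3 and MSC 4 averaged 5.34. Lanes 5 and 6 together gave a log2 difference of −2.42. MSC 3, which had 0 reads on the Y-linked EIF1AY and KDM5D where the controls had 0 or 1, stood at 5.65 scaled RPKM, below each control. Leaving out 1 library at a time gave log2 differences from −3.53 to −2.88. All these values also chose the gene, so nothing is read from them. The parts of lane and of Y-linked reads were not tested.

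In scaled RPKM, ADAM7, whose listed interval holds that of ADAMDEC1, put the 9 libraries in the same order as ADAMDEC1 did. ADAM7 stood at 12.1, 29.6 and 22.5 scaled RPKM in controls 1 to 3, and at 2.05, 1.80, 4.81, 4.19, 0.232 and 0.535 in MSC 1 to 6. Before scaling, MSC 5 and MSC 6 stood at 0.242 and 0.213 RPKM for ADAMDEC1 and at 0.186 and 0.218 for ADAM7, so their order differed. Control 3 was then the highest control for both genes (35.0 and 26.7). No MSC library reached the lowest control. The control mean of ADAM7 was 21.4 ± 8.83 (SD, n = 3) and its MSC mean 2.27 ± 1.87 (SD, n = 6), with a log2 difference of −2.91 ± 0.53 (SE). In controls the ADAMDEC1 reads came to 94.5% to 97.7% of the ADAM7 reads in number. The levels of ADAM7 and ADAMDEC1 cannot be told apart in this table, beyond the excess given above.

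ADAM28 was lower on average in MSC veins, but its groups overlapped. It stood at 12.9, 7.13 and 4.997 scaled RPKM in controls 1 to 3, and at 2.14, 2.42, 7.92, 2.70, 1.02 and 2.42 in MSC 1 to 6. In this gene MSC 3 lay above control 2 and control 3, and the other 5 MSC libraries lay below all controls. The means were 8.33 ± 4.07 (SD, n = 3) and 3.10 ± 2.43 (SD, n = 6), a ratio of 2.68. The log2 difference was −1.26 ± 0.44 (SE), the 194th lowest of 17884. Without control 1 the control mean was 6.06 and the ratio 1.95. Without MSC 3 the MSC mean was 2.14 and the ratio 3.89. In lane 6 alone the order of the means turned: control 3 stood at 4.997, and MSC 3 and MSC 4 averaged 5.31.

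**Figure D2:**
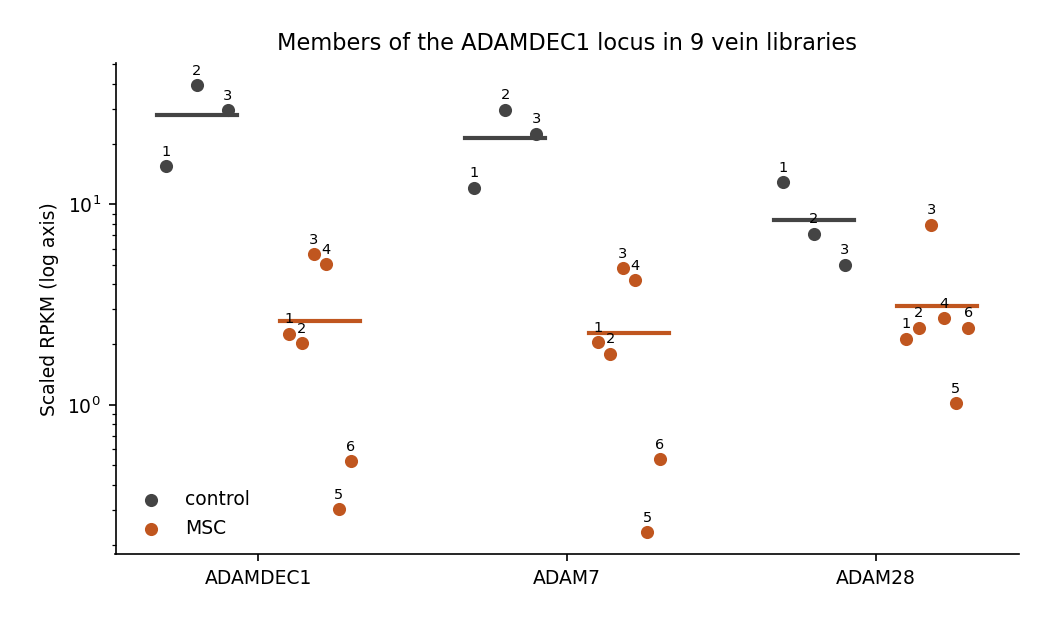
Scaled RPKM (log axis) of ADAMDEC1, ADAM7 and ADAM28 in each library; points are libraries with their replicate number, and bars are group means. All MSC points lie below all control points for ADAMDEC1 and ADAM7, and MSC replicate 3 lies among the controls for ADAM28.

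ADAM28 did not share the order of the libraries with ADAMDEC1 among controls. Control 1 had the highest ADAM28 (12.9) and the lowest ADAMDEC1 (15.4). The ratio of ADAMDEC1 to ADAM28 was 1.20 in control 1, 5.50 in control 2 and 5.90 in control 3. In MSC libraries it ran from 0.216 in MSC 6 to 1.86 in MSC 4, with a median of 0.776. The ratios of the groups overlapped, as control 1 lay below MSC 4. After each group's mean was subtracted, the Pearson r of both genes over the 9 libraries was 0.46.

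None of the other ADAM genes tested passed (0 called). Of 20 other ADAM genes listed, 14 were tested, 4 were below the filter, and ADAM5 and ADAM29 had no row of that name. With limma over all 17884 genes, 0 of the 14 passed at an adjusted p of 0.05 (smallest 0.92), against 0.0% of all genes in either direction. At an unadjusted p under 0.05 the 14 also held 0, against 729 of all genes (4.08%), and limma-voom called 0 of all genes, with 817 (4.57%) at an unadjusted p under 0.05. Log2 differences were positive for 7 and negative for 7, against 55.3% and 44.7% of all genes, and their median was −0.03, against 0.04 over all genes. By mean RPKM, ADAMDEC1 ranked 2nd of 17 ADAM genes in controls and 9th in MSC veins, a description of values that also chose it. ADAM28 ranked 8th in both.

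The other ADAM genes tested had log2 differences on both sides of 0, and those of ADAM17, ADAM10 and ADAM9 were negative. ADAM17, which releases TNF and ligands of the EGF receptor, averaged 7.81 scaled RPKM in controls and 6.64 in MSC veins. ADAM10, which cleaves Notch receptors, averaged 10.5 and 7.97, and ADAM9, a widely expressed sheddase, 26.03 and 24.04. The signs of ADAM10 and ADAM9 turned in lanes 5 and 6 alone. ADAM12, a protease of activated mesenchymal cells, was the most abundant at 124 and 64.9, with a log2 difference of −0.96 ± 0.47 (SE). ADAM19 averaged 23.5 and 27.4, and its log2 difference of 0.00 took either sign with the scaling. ADAM33, known from smooth muscle and mesenchyme, averaged 12.8 and 23.8. ADAM15, found on endothelium and smooth muscle, averaged 2.52 ± 0.139 (SD, n = 3) and 6.89 ± 5.39 (SD, n = 6). It was the only one of the 14 whose MSC libraries all lay on 1 side of the controls, here above; of all genes, 1.97% lay all above and another 1.97% all below. ADAM23 averaged 2.37 and 1.32. ADAM8, ADAM32, ADAM20, ADAM22, ADAM2 and ADAM11 averaged under 1 scaled RPKM in both groups. ADAM9, ADAM10, ADAM12, ADAM17 and ADAM19 overlap another listed gene and may share reads with it.

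**Figure D3:**
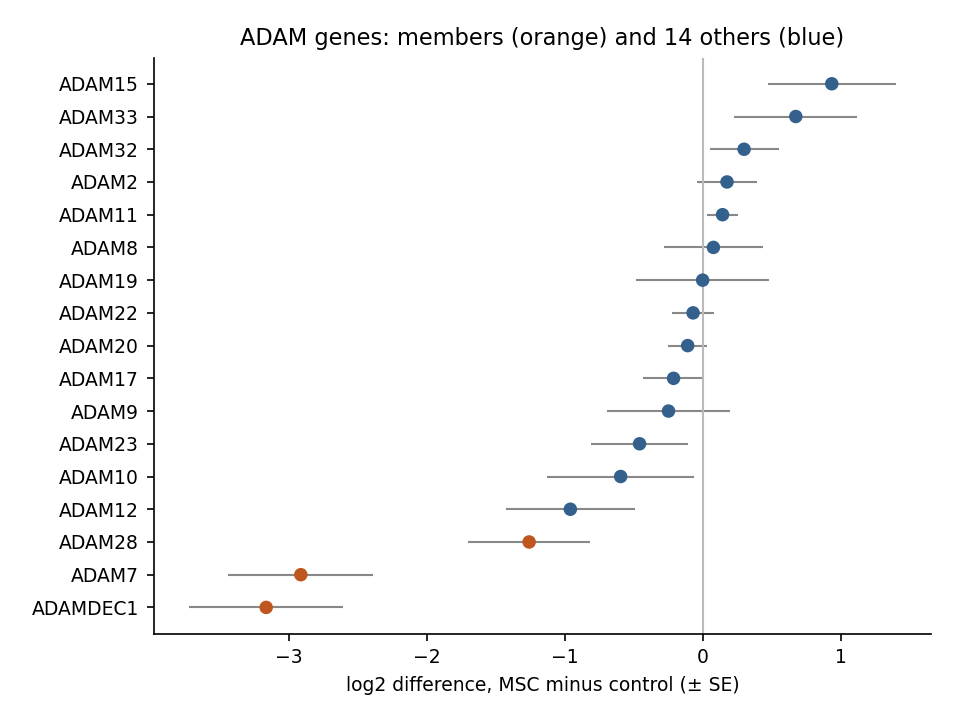
Log2 difference (MSC minus control, with its standard error) of the 3 members, orange, and of the 14 other ADAM genes tested, blue. The other genes lie between −0.96 and 0.94, and ADAMDEC1 and ADAM7 at −3.16 and −2.91.

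The genes around the locus, which the selection did not use, are described beside the members. Within 1000000 bases on either side the table listed 24 further genes, of which 11 were tested; 0 passed, with a smallest adjusted p of 0.92 from limma. Their median log2 difference was 0.04, with 7 positive and 4 negative. DOCK5, a guanine nucleotide exchange factor for Rac, averaged 5.85 and 3.597 scaled RPKM in control and MSC veins, a log2 difference of −0.61 ± 0.29 (SE). LOXL2, a lysyl oxidase that crosslinks collagen, averaged 28.6 and 27.2, with a log2 difference of −0.63 ± 0.74 (SE). STC1, the hormone stanniocalcin, and SLC25A37, the mitochondrial iron importer of red cell precursors, had positive differences of 0.74 each. KCTD9 (−0.30), ENTPD4 (−0.18), CDCA2 (0.22), R3HCC1 (0.29) and CHMP7 (0.37) lay closer to 0. For CHMP7 all 6 MSC libraries exceeded the highest control, as for 1.97% of all genes. NEFL, a neurofilament gene, was below the filter.

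**Figure D4:**
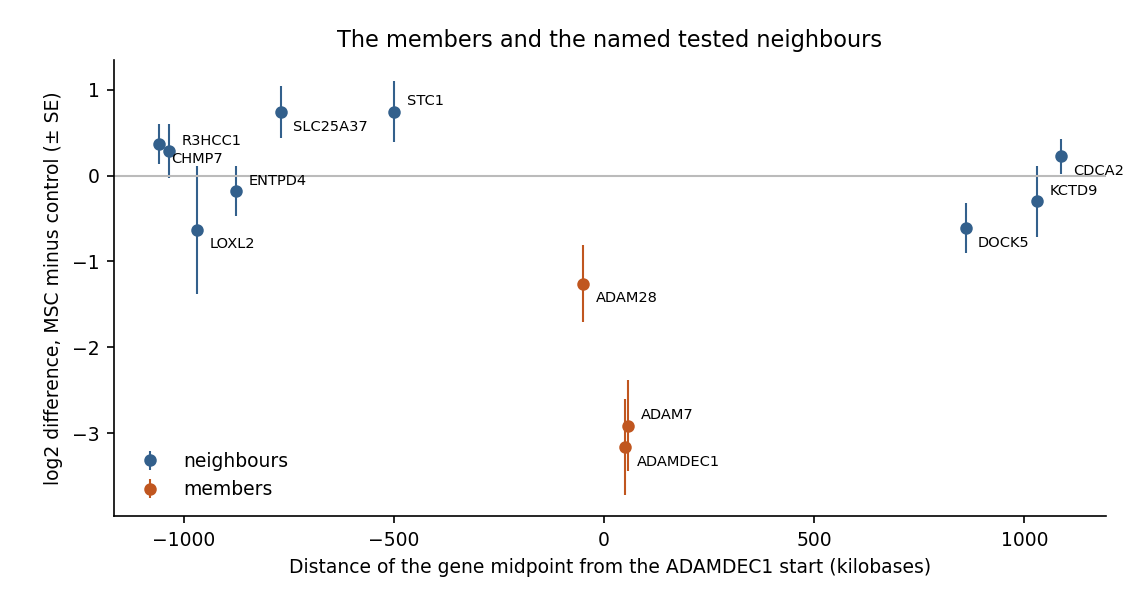
Log2 difference (MSC minus control, with its standard error) of the members, orange, and of the 9 tested neighbours named in the text, blue, against the distance of each gene's midpoint from the start of ADAMDEC1 in kilobases. These neighbours lie between −0.63 and 0.74.

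Genes for substrates, partners, activators and inhibitors of these proteases were followed next. Of 10 substrates and partners listed, 8 were tested and 0 passed (smallest adjusted p of 0.92 from limma), with a median log2 difference of −0.17. FCER2, the low-affinity IgE receptor CD23 that human ADAM28 can shed from B cells, had a control mean of 0.283 ± 0.263 (SD, n = 3) scaled RPKM and an MSC mean of 0.0511 ± 0.0388 (SD, n = 6). The groups of FCER2 overlapped. The growth factor CCN2 averaged 142 and 153. VWF, the endothelial clotting protein, averaged 7.59 and 15.5. Among the integrin chains that bind ADAM28, ITGA4 averaged 7.87 and 6.81, ITGA9 14.9 and 16.9, ITGB1 98.4 and 86.7, and ITGB7 3.64 and 2.31. EGF, whose precursor ADAMDEC1 can cleave, averaged 0.542 and 0.837.

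Of 8 genes for prodomain removal and inhibition, 7 were tested and 0 passed, with 6 positive and 1 negative and a median log2 difference of 0.92. PCSK6, a proprotein convertase, averaged 3.73 ± 0.915 (SD, n = 3) and 23.7 ± 10.7 (SD, n = 6), with an adjusted p of 0.319 from limma. PCSK5 averaged 5.23 and 13.3. Both lay above every control in all 6 MSC libraries, as did 1.97% of all genes. FURIN, the main convertase of ADAM prodomains, averaged 4.75 and 9.81, with 39.1 in MSC 5, while MSC 1 to 4 lay between 1.68 and 3.67 and control 2 was the highest control at 7.48. TIMP3, the matrix-bound inhibitor of several ADAM proteases, averaged 42.5 and 84.7, TIMP1 26.5 and 60.5, TIMP4 1.28 and 1.03, and PCSK7 3.85 and 5.75.

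Markers of the cells known to express the members were measured in the same libraries, and their part in the members' levels was not tested. The macrophage list, 12 tested genes of 14, had a median log2 difference of −0.03 with 6 positive and 6 negative, and 0 passed. Its summed level was 303 to 448 scaled RPKM in controls and 252 to 1369 in MSC libraries. MARCO was at 0 in MSC 6, and no other tested marker of that list was at 0. C1QC, C1QB and C1QA, the complement chains made by tissue macrophages, averaged 128, 46.6 and 26.4 in controls and 251, 70.5 and 49.96 in MSC veins. MSC 3 had the highest macrophage sum of all libraries, of which C1QC alone held 737. The ADAMDEC1 level was 5.65 in MSC 3 and at least 15.4 in controls. Without MSC 3 the MSC sums ran from 252 to 620.

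Markers of lipid-laden macrophages leaned lower. Of 12 tested of 14 genes, 9 were negative, against 44.7% of all genes. The median was −0.28, with 0 passing (smallest adjusted p of 0.52 from limma). CHIT1 was below the filter and at 0 in 3 MSC libraries. The sums were 282 to 647 scaled RPKM in controls and 155 to 325 in MSC libraries. At an unadjusted p under 0.05 in limma the list held 4 of 12, against 4.08% of all genes, and of these CHI3L1 was higher in MSC veins. All MSC libraries lay below all controls in 2 genes, GPNMB and TREM2, against 1.97% of all genes. TREM2 averaged 3.50 in controls and 1.35 in MSC veins. GPNMB, a glycoprotein of such cells, averaged 219 and 39.7, CD9 40.7 and 52.9, and CTSD, a lysosomal protease, 27.7 and 30.8. GPNMB was highest in control 1 at 384, the control with the lowest ADAMDEC1. The dendritic cell list had 5 positive and 5 negative of 10 tested, a median of −0.01, and sums of 17.6 to 25.0 and 10.2 to 60.2. In that list CCL17 was at 0 in MSC 6. Its most abundant genes, FSCN1, CD83 and CCL17, averaged 7.97, 6.69 and 1.08 in controls and 10.8, 5.05 and 2.53 in MSC veins.

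B and plasma cell markers had mostly negative differences, and no gene passed the test, although 11 of 17 had an unadjusted p under 0.05 in limma, against 4.08% of all genes. In 4 of them all MSC libraries lay below all controls, against 1.97% of all genes. JCHAIN and MZB1 had the lowest log2 differences of the list, −2.33 and −2.13, but control 1 lay within the MSC range for both. JCHAIN stood at 4.07, 18.2 and 34.9 scaled RPKM in controls 1 to 3, and at most at 4.18 in MSC libraries. MZB1 stood at 0.619, 14.1 and 8.46, and at most at 1.20. Control 1 also lay within the MSC range for POU2AF1 and IRF4. Of 17 tested of 18 genes, 16 were negative, against 44.7% of all genes. The median log2 difference was −0.63, with 0 passing (smallest adjusted p of 0.374 from limma). The mean log2 level of the list was 1.54, 2.25 and 2.08 in controls 1 to 3 and 1.03 to 1.41 in MSC libraries. The groups did not overlap on that mean. As a plain sum they did, at 83.0 to 154 and 57.8 to 281 scaled RPKM. CD79A alone held 228 in MSC 6, and the sum in MSC 3 was 149.6. CD79A overlaps a gene without a symbol that holds more reads than it does. XBP1 and BANK1 averaged 39.5 and 10.8 in controls and 39.1 and 8.74 in MSC veins. FCER2, TNFRSF17 and POU2AF1 were at 0 in MSC 6 only, and MZB1 and TNFRSF13B in MSC 2 only. MSC 2 was the shallowest library, and MSC 6 had the highest share of small non-coding RNA (53.3%). MS4A1, which encodes the defining B cell antigen CD20, was detected in all 9 libraries, and every MSC library lay below every control. Its level was 2.26 scaled RPKM in control 1, 1.05 in control 2 and 1.36 in control 3. The MSC libraries ran from 0.0705 to 0.482. The log2 difference of MS4A1 was −0.98 ± 0.18 (SE), and the smallest adjusted p of the list, 0.374 from limma, was that of this gene.

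T and NK cell markers had 14 of 15 tested rows negative (GZMA has 2 rows), against 44.7% of all genes. The median was −0.38, with 0 passing (smallest adjusted p of 0.736 from limma). With lane as covariate the median was −0.05, and in lanes 5 and 6 alone it was −0.02. Of the 15 rows, 2 had an unadjusted p under 0.05 in limma, against 4.08% of all genes. The sums were 48.3 to 72.2 in controls and 22.5 to 129 in MSC libraries. No tested gene of that list was at 0. CD3G and NKG7 averaged 17.3 and 6.58 in controls and 15.1 and 6.38 in MSC veins, and a row named GZMA (ENSSSCG00000016903) 3.74 and 7.38. CD3G overlaps ATP5MG, which holds more reads than it does, and UBE4A, and may share reads with them. MSC 3 had the highest T and NK sum, 129 scaled RPKM, and Y-linked reads like those of controls. Only 2 neutrophil genes were tested, S100A8 and CSF3R, with sums of 0.978 to 5.04 and 0.438 to 3.11. MPO and ELANE were below the filter.

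The genes known from the ADAMDEC1-expressing fibroblasts of human gut gave 2 positive and 5 negative of 7 tested, with a median of −0.03 and 0 passing. Their sums were 622 to 839 scaled RPKM in controls and 244 to 2656 in MSC libraries, where MSC 3 was highest and MSC 5 lowest. HAPLN1 was at 0 in MSC 6. DCN, the matrix proteoglycan decorin, averaged 664 and 1001, PDGFRA 52.0 and 51.6, and CCL8 11.3 and 13.1. Without MSC 3 the sums of MSC libraries ran from 244 to 1110.

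Smooth muscle genes were all positive, 9 of 9, against 55.3% of all genes. Their median was 1.70, with 0 passing (smallest adjusted p of 0.92 from limma). The median was 0.44 in lanes 5 and 6 alone, 0.86 with lane as covariate, 0.65 with the replicate block and 1.12 without MSC 5. They were highest in the libraries where ADAMDEC1 was lowest. Their sum was 6444 in MSC 5 and 6858 in MSC 6, where ADAMDEC1 stood at 0.301 and 0.523, and 398 to 540 in controls. MSC 3 had the lowest sum, 173, and ADAMDEC1 was at 5.65 there. ACTA2, TAGLN and ACTG2, parts of the contractile apparatus, averaged 243, 147 and 11.8 in controls and 1049, 698 and 425 in MSC veins. Endothelial genes had a median of 0.19 with 5 of 8 positive; the median was −0.11 with lane as covariate, −0.09 in lanes 5 and 6 alone and −0.12 without control 2. The list had 0 passing, with sums of 36.7 to 105 and 51.5 to 133. PECAM1 and CDH5 averaged 25.1 and 8.15 in controls and 25.96 and 12.9 in MSC veins. PECAM1 overlaps DDX5, which holds more reads than it does, and may share some.

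Measured epididymal and epithelial markers averaged under 1 scaled RPKM in both groups, apart from DEFB1 in MSC veins (2.14). Their bearing on the ADAM7 reads was not tested. Of 10 listed, 4 were tested and 4 had no row of that name. Their sums were 0.357 to 1.18 scaled RPKM in controls and 0.396 to 10.9 in MSC libraries. DEFB1 made up 10.8 of the sum in MSC 6 and was at 0 in 2 MSC libraries. CDH1 and EPCAM averaged 0.188 and 0.0493 in controls and 0.294 and 0.114 in MSC veins. KRT8 was at 0 in 1 control and 2 MSC libraries. CRISP1, an epididymal secretory protein, was below the filter and at 0 in 2 controls and 3 MSC libraries.

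**Figure D5:**
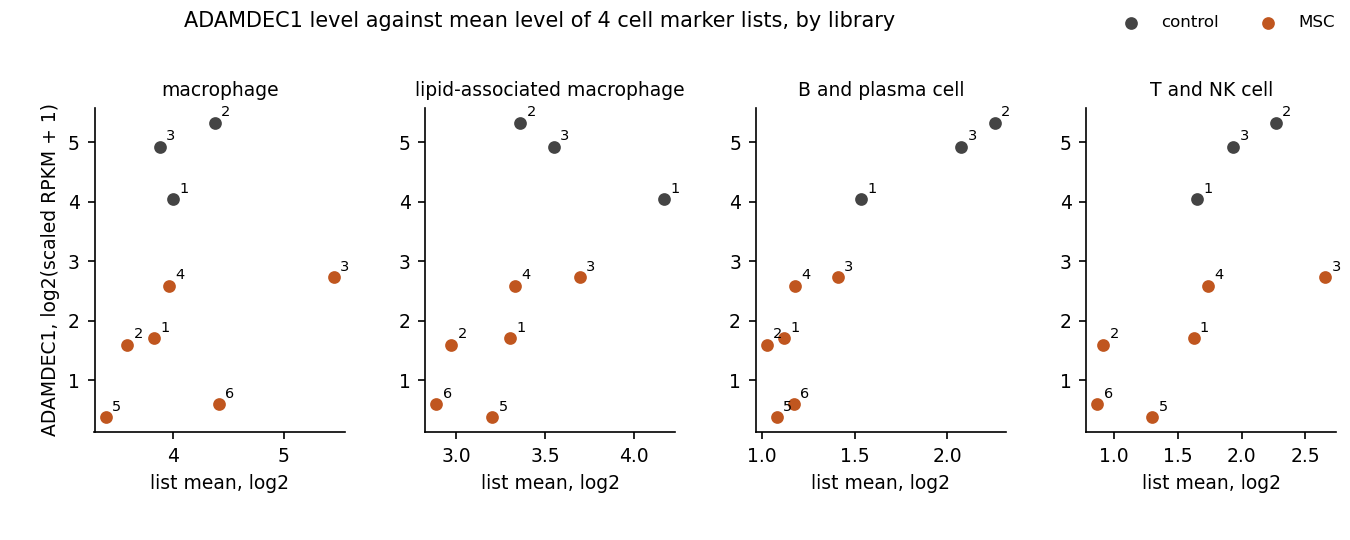
ADAMDEC1 level, log2(scaled RPKM + 1), against the mean log2 level of 4 marker lists in each library; numbers are replicate numbers. Controls lie to the right of all MSC libraries for the B and plasma cell list, while for macrophage and T and NK lists MSC replicate 3 lies farthest right.

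The genes whose pattern was most like that of ADAMDEC1 were sought by Pearson r over the 9 libraries after subtracting each group's mean, among 12847 other protein-coding genes with a symbol. KIAA0895 (0.97), AOAH (0.97), PIK3CG (0.97), EMB (0.97) and CD96 (0.97) came first. KIAA0895 and AOAH overlap and held 5910 and 5933 reads, so they may be 1 pattern counted under both names. AOAH encodes a leukocyte enzyme that detoxifies lipopolysaccharide, PIK3CG a phosphoinositide kinase of leukocytes, and CD96 a receptor of T and NK cells. EMB, a membrane glycoprotein, was the only one of the 5 whose groups did not overlap. All its MSC libraries lay below all controls, as in 1.97% of all genes, and its adjusted p was 0.806 from limma. The mean of EMB was 4.61 scaled RPKM for controls and 1.42 for MSC veins, with a log2 difference of −1.29 ± 0.42 (SE). The other 4 differed by −0.14 to −0.41.

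For ADAM28 the nearest genes by the same measure were MSR1 (0.97), AMBN (0.96), SYAP1 (0.95), PKIB (0.95) and ZMAT2 (0.95). MSR1, a scavenger receptor of macrophages, stood at 14.2 scaled RPKM in control 1 and 19.96 in MSC 3, the highest control and MSC library for ADAM28 too. AMBN, known for ameloblastin of tooth enamel, stood at 10.5 in control 1 and 12.8 in MSC 3. These likenesses share libraries, depth and scaling, and are given as a description. MSR1 averaged 8.82 and 5.97 in the groups, and AMBN 6.74 and 3.81, with overlap in both.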

How the data were processed

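RNA of 9 pig vein libraries was sequenced; per the labels' protocols, a TruSeq V2 kit and 0.5 µg of RNA were used. The deposited values are RPKM per gene, per the file headers; the deposited table also gives gene length in bases, an other kind of value. Builds susScr11 and mm10 are listed, without a role, per the submitters' processing notes; aligner and counter are not given in the sources used here. RPKM times (length + 1) came in whole steps per library (all values within 0.01 of a whole number), which gave the reads. Scaling used a trimmed mean of log ratios (TMM; trims 0.3 for ratios, 0.05 for levels). Tested were 17884 genes that reached a scaled count of 10 in 3 libraries or more, and 15 reads overall. limma 3.58.1 in R 4.3.3 was fitted to log2(scaled RPKM + 1), with a variance prior that follows expression, on all 9 libraries, without covariates; adjusted p-values are Benjamini-Hochberg values, with a threshold of 0.05. The fit was tested on simulated data. The members, the lists and the tests were chosen with earlier results of these data known. Lists are described by counts and medians. Named genes were the members, all tested genes of the ADAM, partner, processing and neighbour lists, the 3 most abundant genes of each marker list (1 gene that the rule takes is not reported here), and the 5 most like ADAMDEC1 and ADAM28; further genes were named after their values were seen (EIF1AY, KDM5D, MARCO, CHIT1, MS4A1 and other markers at 0 or below the filter). Of the 14012 genes without a symbol, 785 took one from a gene name table. RefSeq coordinates are of Sscrofa11.1. Promoter and protein sequences were not analysed here. Replicate numbers are not known to pair the libraries, so no block was used. Correlations of deviations were 0.22, −0.52 and −0.14 for like numbers and −0.46 to 0.56 for unlike numbers. They cannot decide the pairing, since deviations from a group mean depend on each other. Alternatives were other scalings, filters, pseudocounts of 0.1 and 0.5, limma-voom, lane, the block, and left-out libraries.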

Additional observations from a re-analysis of the deposited data

Results flagged for a closer look

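Of 95 values tested in the 6 MSC libraries (the members, list means, the ADAM7 excess and named genes, on the log2 scale), 9 had 1 library far from the other 5; chance gives about 1 in 20. None of the 3 members was among them. The control group was too small to test.

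The highest value was in MSC 2 for ADAM2 (1.12, next 0.20), ADAM22 (0.70, next 0.0747) and EPCAM (0.54, next 0.11), the library with reads on 94.5% of genes. MSC 5 stood above in ADAM8 (2.02, next 0.82) and FSCN1 (5.52, next 2.86), and below in KCTD9 (2.97, next 4.45). MSC 6 stood above in DEFB1 (3.56, next 1.07). MSC 3 stood above in AMBN (3.79, next 1.99) and SYAP1 (3.92, next 3.49), both among the genes most like ADAM28.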

How the results depend on the processing

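ADAMDEC1, ADAM7 and ADAM28 kept a negative log2 difference under all alternatives run, each within 1 within-group SD of the value reported. ADAMDEC1 ran from −3.89 (limma-voom) to −2.42 (lanes 5 and 6 alone), and was −2.96 with the 3 members summed as 1 locus. With the replicate block, on numbers not known to pair the libraries, ADAMDEC1 was −2.75, ADAM7 −2.52 and ADAM28 −0.94. Leaving out 1 library gave −3.53 to −2.88, −3.26 to −2.64 and −1.53 to −0.93.

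The number of genes called was 0, but 4 in lanes 5 and 6 alone and 0 to 22 when 1 library was left out: 22 without control 1, 3 without MSC 3 and 1 without MSC 2. None of the 14 other ADAM genes was called under the alternatives run. List medians moved as follows; the cause was not tested. With a mean RPKM of at least 1, which tests fewer genes, the ADAM family was −0.23, B and plasma cells −1.08 and locus neighbours 0.22. With lane as covariate, processing genes were 0.49 and partners 0.25; in lanes 5 and 6 alone partners were 0.20 and gut fibroblast genes 0.29. The replicate block gave processing genes 0.31. limma-voom gave B and plasma cells −2.43, epithelial genes −0.34 and neighbours 0.38. With pseudocounts of 0.1 and 0.5, B and plasma cells were −1.66 and −0.94, and neighbours 0.32 with 0.1. Lipid-laden macrophage genes ran from −0.67 to −0.19 with 1 library left out. Of 1450 values of 77 named genes, 119 changed sign and 0 passed the threshold. The lowest ADAMDEC1 counts were 31 reads in MSC 6 and 47 in MSC 5, and MSC 5 had the most assigned reads, 47417606.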
